A study of Mus musculus with 9 samples.

Results

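All lung libraries of a chronic asthma model, with and without a herbal treatment, were pooled and set against normal lung. The 6 model libraries are 3 from asthmatic BALB/c mice given saline by mouth (asthma) and 3 from asthmatic BALB/c mice dosed with a Chinese herbal mixture, the Bu-Shen-Yi-Qi formula (BSYQF). The other 3 libraries come from normal BALB/c mice given saline (control), so all 9 libraries of the series entered the comparison, and they were chosen by their labels and not by any measured value. The formula was given from day 14 at 20 g of raw herbs per kg of body weight, for 6 weeks as the labels state it, and saline was given from the same day. The sources used here do not give the way the model was induced or the age and sex of the mice. The question was which transcripts differed from normal lung in the model whether or not the formula was given. A pooled call compares the 6 libraries together with control and does not show that each group differed from control by itself. Nothing in the labels says that the numbered replicates are separate mice, so p-values measure only the spread among these libraries, and that spread may be technical.

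In allergic airway disease, inhaled antigen drives type 2 helper T cells and innate lymphoid cells to release cytokines that act on the airway lining, on macrophages and on B cells. Airway secretory cells turn into mucus-filled goblet cells, macrophages take up an alternatively activated state, and B cells mature into antibody-secreting plasma cells. In chronic models, remodelling of the airway wall adds to this, with changes in smooth muscle, matrix and blood vessels. BALB/c mice are an inbred strain that is widely used for such models because of its strong type 2 responses.

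Each library held 16286385 to 22819199 counts, and 14739 genes passed the filter on low counts. Gene coordinates are from GENCODE vM21 on GRCm38. Levels are in CPM, counts per 1e6 of the scaled library total, and 3 counts correspond to 0.131 to 0.184 CPM. Defining lung transcripts were abundant in every library, with Sftpc, the surfactant protein of alveolar type 2 cells, at 238614 to 429543 counts, and Scgb1a1, the secretoglobin of club cells, at 361118 to 982899 counts. Transcripts of the mitochondrial genome took 2.19% to 3.46% of counts in control, 5.05%, 10.3% and 3.77% in the asthma libraries and 6.53%, 3.61% and 2.64% in the BSYQF libraries. On the first principal component of log2 CPM, control lay at -51.9, -56.7 and -43.2. The asthma libraries lay at 51.9, 76.0 and 1.77 and the BSYQF libraries at 40.5, 1.20 and -19.6, so asthma 2 was farthest from control and BSYQF 3 nearest. Asthma 2 also had the highest mitochondrial share and BSYQF 3 the lowest of the model libraries. The part of that share in the gene results was not tested.

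Model lung differed from control in many genes, and most of the larger differences were rises. At an adjusted p under 0.05 in edgeR's quasi-likelihood test, 871 of 14739 genes (5.91%) were called, 625 higher (4.24%) and 246 lower (1.67%) in the model. At least a 2-fold change was seen in 510 of the called genes, of which 460 were higher and 50 lower. A 4-fold change was reached by 195 genes called higher and by 1 called lower. Over all genes tested the median log2 fold change was 0.012. In 1364 genes (9.25%) all 6 model libraries lay above all 3 control libraries, and in 1143 (7.75%) all 6 lay below, 17% together. Of the called genes, 609 of those higher and 233 of those lower were separated in this way, and in 29 the arms overlapped. In bulk lung tissue, a change in the number of cells of a type and a change in the RNA per cell cannot be told apart.

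**Figure D1:**
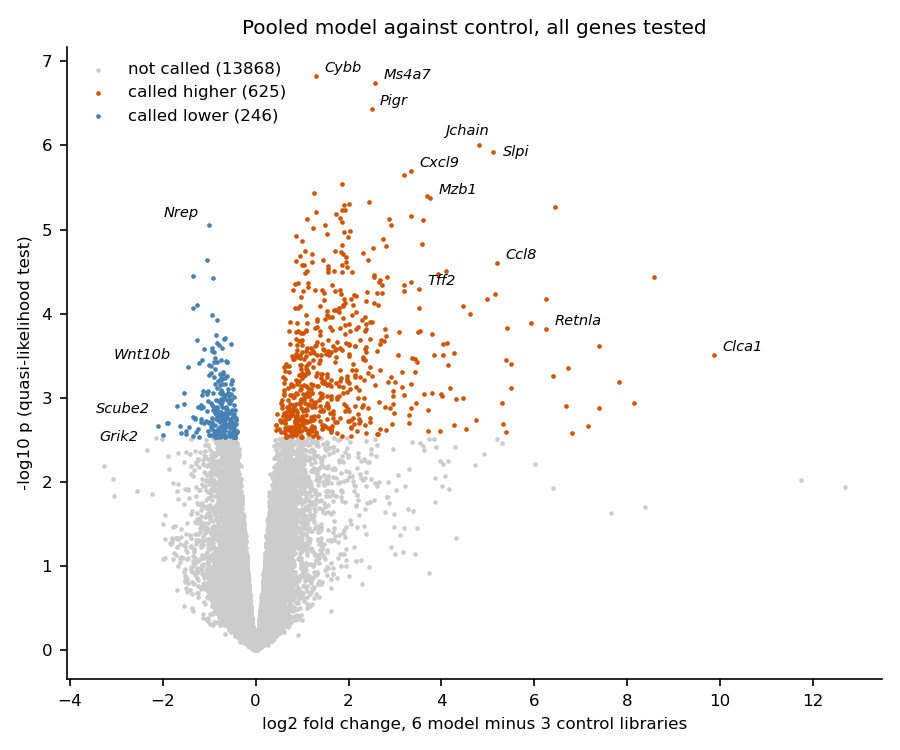
Each point is 1 of 14739 genes: the x axis is its log2 fold change between the 6 model and 3 control libraries and the y axis is -log10 of its unadjusted p in edgeR's quasi-likelihood test. The 625 genes called higher reach much larger fold changes than the 246 called lower, of which 1 fell past 4-fold.

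The genes with the smallest p-values included macrophage and antibody-related genes with narrow ranges among the 6 model libraries. Cybb, the membrane subunit of the phagocyte NADPH oxidase (chrX:9435252-9487771), stood at 70.1, 80.03 and 72.8 CPM in control, 170.2, 193 and 188 in asthma and 198, 192 and 164 in BSYQF (log2 fold change 1.31 ± 0.12, adjusted p = 0.00136). Ms4a7, a macrophage membrane protein (chr19:11321039-11336146), stood at 3.57, 2.28 and 2.98 CPM in control, 18.4, 19.02 and 19.8 in asthma and 20.2, 15.2 and 12.4 in BSYQF (log2 fold change 2.57 ± 0.24, adjusted p = 0.00136). Pigr, the receptor that carries polymeric antibody across the airway lining (chr1:130826684-130852249), rose from 92.02, 91.2 and 150.2 CPM to 537, 801 and 545 in asthma and 726, 471 and 684 in BSYQF (log2 fold change 2.50 ± 0.24, adjusted p = 0.00184). In all of them the lowest model library was above the highest control library. Genes named by smallest p or largest change were admitted only if their arms did not overlap, so for them this is no separate finding. Csf2rb, the receptor chain shared by interleukin 3, interleukin 5 and GM-CSF, rose from 39.5, 42.5 and 32.5 CPM to a range of 70.5 to 108 with a median of 92.4 (log2 fold change 1.25 ± 0.15, adjusted p = 0.00469). Slpi, a protease inhibitor secreted by airway lining cells (chr2:164354070-164389095), rose from 37.9, 33.3 and 28.5 CPM to 1635, 2207 and 509 and 1146, 753 and 602, a 34.3-fold change (adjusted p = 0.00355). The calls of Cybb, Ms4a7, Pigr, Csf2rb and Slpi held whichever library was left out.

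How many genes were called depended on the control libraries and on BSYQF 3. With 2 of the 3 control libraries, 131, 72 and 72 genes were called without control 1, 2 and 3. Without asthma 1, 2 or 3 the calls numbered 380, 640 and 1166. They numbered 482, 550 and 2686 without BSYQF 1, 2 or 3. In all 9 of these fits 48 genes were called, 45 higher and 3 lower. The 45 held the 3 chains of the complement starter C1q (C1qa, C1qb and C1qc), the plasma cell genes Jchain, Mzb1 and Derl3, the dividing-cell genes Top2a, Birc5 and Ccna2, and the neutrophil granule gene Lcn2. With all 9 libraries, Lcn2 was the only one called of 12 tested neutrophil genes. The 3 lower were 1190002N15Rik, a gene model without an established role, Nrep, which is known from regenerating tissue, and Pla2r1, a receptor of secreted phospholipases. Nrep stood at 103, 115 and 134 CPM in control and at a range of 51.3 to 73.9 with a median of 57.4 in the model (log2 fold change -1.0 ± 0.13, adjusted p = 0.00470), and Pla2r1 at 49.8, 42.7 and 39.3 CPM and at a range of 11.9 to 25.1 with a median of 16.6 (log2 fold change -1.34 ± 0.21, adjusted p = 0.00734). The model libraries of both lay below every control library. These genes were named after their values were seen. Each of the 871 genes kept its sign in every one of these fits that tested it. This was close to given, since the arms of most of them did not overlap and the fits share libraries.

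**Figure D2:**
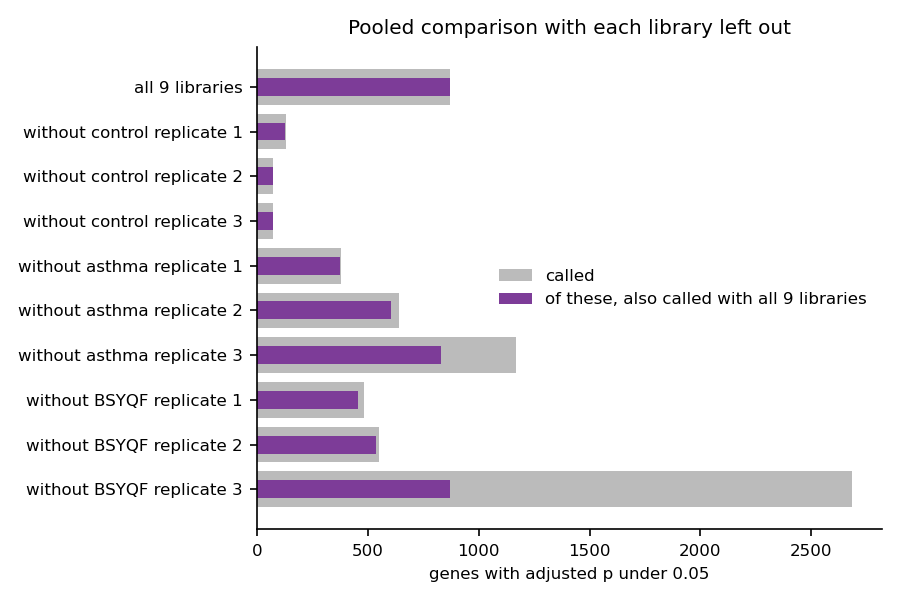
Grey bars give the number of genes with an adjusted p under 0.05 in the pooled comparison with all 9 libraries and with each library left out, and violet bars how many of these are among the 871 called with all 9. The count is lowest, at 72, without control 2 or 3 and highest, at 2686, without BSYQF 3.

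Within the model, few genes were called between the saline and formula groups by edgeR, and the number depended on the tool and the libraries. At an adjusted p under 0.05, 1 of 14739 genes (0.00678%) differed between BSYQF and asthma in edgeR's test, and 1171 genes had an unadjusted p under 0.05. DESeq2 called 123 genes and limma voom 0. With 1 library left out edgeR called 0 to 109, the most without asthma 3. Of the 871 genes called in the pooled comparison, 78 (8.96%) had an unadjusted p under 0.05 for BSYQF against asthma, beside 7.94% of all genes tested. For 536 of them (61.5%) the 95% interval of the BSYQF minus asthma difference lay within a 2-fold change in either direction, beside 70% of all genes tested. The difference was not resolved to within 2-fold for the rest. Against control in edgeR's test, Itga8, Hlf and Arg1 passed in asthma (adjusted p = 0.0109, 0.0253 and 0.0195). They did not pass in BSYQF (adjusted p = 0.170, 0.194 and 0.108). H2-Eb1 passed in BSYQF (0.0392) and not in asthma (0.0598), and Cybb passed in both (0.00238 in asthma, 0.00506 in BSYQF). Those comparisons share the control libraries. The median size of the difference over the 871 genes was 0.25 on the log2 scale, where the median size of the pooled change was 1.13. BSYQF lay below asthma in 423 of the 625 genes called higher (67.7%, beside 50.7% of all genes tested). It lay above asthma in 211 of the 246 called lower (85.8%, beside 49.3%). Without asthma 2 these shares were 49.2% and 68.9%. Without asthma 3 the shares were 80.2% and 93.7%. With asthma 2 and BSYQF 3 left out together, they were 53.7% and 48.3%. Asthma 2 lay farthest from control on the first principal component and BSYQF 3 nearest, so leaving out both favours lower shares and is no neutral check.

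Among the pooled calls of at least 2-fold, the smallest p-values between the formula and saline groups included those of acute-phase and scavenger genes, and none passed the adjustment in edgeR's test. Timp1, an inhibitor of matrix metalloproteases, stood at 5.35, 2.63 and 4.15 CPM in control, 459, 396 and 60.7 in asthma and 46.9, 49.4 and 16.4 in BSYQF. Both groups were above control in every library, and asthma 3 lay closer to the BSYQF libraries than to asthma 1 and 2. The BSYQF minus asthma difference of Timp1 was -3.02 ± 0.69 on the log2 scale (adjusted p = 0.321), with a 95% interval of -4.57 to -1.47. Against control, Timp1 had a log2 fold change of 6.23 ± 0.82 in asthma and 3.21 ± 0.73 in BSYQF, from comparisons that share the control libraries. Saa1, an acute-phase apolipoprotein, stood at 0.216, 0 and 0.0532 CPM in control, 23.4, 9.75 and 8.70 in asthma and 1.998, 5.11 and 0.781 in BSYQF. Its difference was -2.41 ± 0.65 (adjusted p = 0.416), and the lowest asthma library was above the highest BSYQF library. The scavenger receptor Msr1 and the acute-phase glycoprotein Lrg1 had differences of -1.68 ± 0.43 and -1.22 ± 0.29, both with lower means in BSYQF (adjusted p = 0.380 and 0.315). Nfkbiz, an inhibitor-like regulator of NF-kB induced in lining cells, went the other way, from 43.4, 39.1 and 45.9 CPM in asthma to 56.9, 89.3 and 84.8 in BSYQF with control at 31.4, 25.2 and 27.3 (0.85 ± 0.18, adjusted p = 0.259). Saa1, Msr1 and Lrg1 were not called without control 1, 2 or 3 (adjusted p up to 0.134). Nfkbiz was not called without control 1, 2 or 3, asthma 1 or BSYQF 1 or 2 (adjusted p up to 0.188). Timp1 was not called without control 1, 2 or 3, asthma 1 or 2 or BSYQF 2 (adjusted p up to 0.206).

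At the other end, some genes of at least 4-fold change had nearly the same mean in both model groups, and for these the difference is a description, since it chose them. The difference of Pigr was -0.0019 ± 0.25, with a 95% interval of -0.56 to 0.56, which lies within a 2-fold change in either direction. Clca1, a secreted goblet cell protein (chr3:145003817-145032776), had a difference of -0.017 ± 1.25, but its interval of -2.85 to 2.82 was wide. Its 6 model values of 1198, 3402 and 275 CPM in asthma and 4378, 351 and 88.7 in BSYQF spread over more than an order of magnitude, against 2.92, 0.995 and 1.22 in control. Ccl8, a chemokine that attracts monocytes and other leukocytes (chr11:82115185-82116799), had a difference of -0.040 ± 0.62 (-1.43 to 1.35). Tnfrsf17, the survival receptor of plasma cells, had one of 0.033 ± 0.48 (-1.02 to 1.08). The lymphocyte gene Rgs1, a regulator of G protein signalling, had one of 0.046 ± 0.43 (-0.90 to 1.0). The call of Ccl8 held whichever library was left out. Rgs1 was not called without control 1 or 3 (adjusted p up to 0.0586). Tnfrsf17 was not called without control 2 or 3 (adjusted p up to 0.0544). Clca1 was not called without control 1, 2 or 3 (adjusted p up to 0.111).

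**Figure D3:**
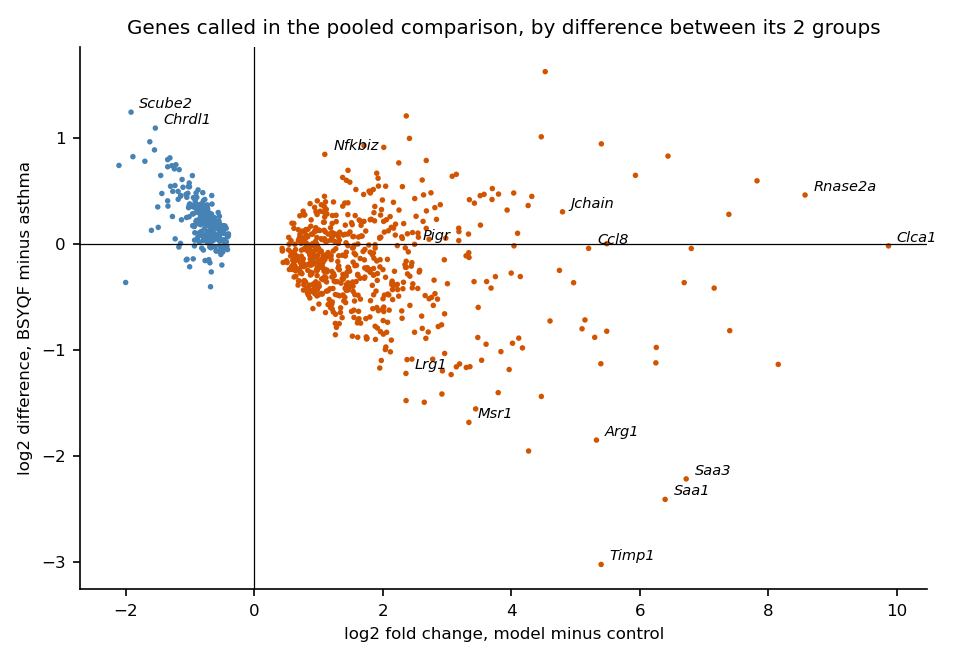
Each point is 1 of the 871 genes called in the pooled comparison: the x axis is the log2 fold change of model against control and the y axis the log2 difference of BSYQF minus asthma. Pigr lies on the horizontal line of no difference, Timp1 lies lowest at -3.02, and 211 of the 246 genes called lower (blue) lie above the line.

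Genes of antibody secretion rose. Of 13 tested plasma cell genes, 9 were called higher and 0 lower, with a median log2 fold change of 1.70, where 4.24% of all genes tested were called higher. Jchain, which joins antibodies of the IgA and IgM classes into polymers (chr5:88519809-88527891), stood at 227, 46.04 and 71.7 CPM in control, 2567, 3424 and 2592 in asthma and 3594, 3626 and 3380.4 in BSYQF (log2 fold change 4.80 ± 0.52, adjusted p = 0.00355). The lowest model library was above 10 times the highest control library. Mzb1, a folding factor of antibody-secreting cells, rose from 19.3, 12.9 and 11.7 CPM to a range of 88.1 to 343 with a median of 196 (log2 fold change 3.75 ± 0.45, adjusted p = 0.00469). Derl3, which clears misfolded proteins from the endoplasmic reticulum, rose from 4.92, 1.35 and 2.02 CPM to a range of 14.6 to 39.2 with a median of 29.6 (log2 fold change 3.34 ± 0.43, adjusted p = 0.00469). Ccr10, a homing receptor of IgA-secreting plasma cells, rose from 0.919, 1.23 and 1.06 CPM to a range of 4.64 to 8.34 with a median of 5.49 (log2 fold change 2.44 ± 0.31, adjusted p = 0.00469). Tnfrsf17 rose from 0.811, 0.234 and 0.585 CPM to a range of 2.15 to 8.13 with a median of 5.003 (log2 fold change 3.18 ± 0.51, adjusted p = 0.00810). None of these 5 overlapped between model and control. The count of plasma cell genes called became 3 without control 3 and 4 without control 2. The calls of Jchain, Mzb1, Derl3 and Ccr10 held whichever library was left out. Tnfrsf17 was not called without control 2 or 3 (adjusted p up to 0.0544).

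Germinal centre genes, which mark the sites where B cells mutate and switch their antibody genes, also rose, at low levels. Of 12 tested, 6 were called higher and 0 lower (median log2 fold change 1.91), where 4.24% of all genes tested were called higher. Nuggc, a nuclear GTPase of germinal centre B cells, had 0, 0.176 and 0 CPM in control and a range of 3.09 to 10.4 with a median of 4.49 in the model, which is 3 against 572 counts, a ratio per total count of 92.4 with a 95% exact counting interval of 31.4 to 449. Il21, the cytokine that follicular helper T cells give to B cells, had 1 against 161 counts, a ratio per total count of 77.99 with a 95% exact counting interval of 13.8 to 3099. Intervals of this kind cover counting error only. Basp1, a membrane-associated protein, rose from 18.3, 14.2 and 17.1 CPM to a range of 41.3 to 76.3 with a median of 57.5 (adjusted p = 0.00469). All 6 model libraries of these genes lay above control. Of 12 B cell and 13 T cell genes 0 were called by edgeR, with medians of 0.64 and 0.39. At an unadjusted p under 0.05, 4 B cell and 2 T cell genes were higher, beside 4145 of all 14739 genes in either direction. DESeq2 and limma voom called 0 in both lists. The summed level of the B cell list was 241 to 618 CPM in control, 383 to 692 in asthma and 520.1 to 925 in BSYQF. Control 2 exceeded asthma 1 and 3 and BSYQF 2 on that list. The germinal centre count became 2 without control 2 and 3 without control 1 or 3. The calls of Nuggc and Basp1 held whichever library was left out. Il21 was not called without control 1, 2 or 3 (adjusted p up to 0.0770).

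Genes of receptors that bind antibody rose too, where 4.24% of all genes tested were called higher. Of 11 tested Fc receptor genes 5 were called higher (Pigr, Fcgr2b, Fcamr, Fcgr3 and Fcer1g, the last named after its value was seen) and 0 lower, with a median of 0.95. Fcgr2b, the inhibitory receptor for IgG, rose from 21.9, 18.8 and 18.6 CPM to a range of 61.4 to 174 with a median of 99.8 (log2 fold change 2.42 ± 0.35, adjusted p = 0.00662). Fcamr, a receptor for IgA and IgM, rose from 2.16, 1.99 and 2.02 CPM to a range of 5.60 to 12.6 with a median of 9.48 (log2 fold change 2.17 ± 0.36, adjusted p = 0.00907). Fcgr3, an activating receptor for IgG, rose from 29.1, 27.9 and 22.4 CPM to a range of 44.2 to 117 with a median of 79.2 (log2 fold change 1.59 ± 0.29, adjusted p = 0.0138). No control library reached the lowest model library in any of the 3. The count of Fc receptor genes called became 1 without control 2 or 3 and 2 without control 1. Fcgr2b was not called without control 2 or 3 (adjusted p up to 0.0514). Fcamr and Fcgr3 were not called without control 1, 2 or 3 (adjusted p up to 0.0814). Fcer1g was not called without control 1, 2 or 3, asthma 1 or 2 or BSYQF 1 or 2 (adjusted p up to 0.137).

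Chaperones and folding enzymes of the endoplasmic reticulum, which secretory cells rely on, rose as well. Of 20 tested, 7 were called higher and 0 lower (median 0.85), where 4.24% of all genes tested were called higher. In 13 of the 20 all model libraries were above control, beside 9.25% of all genes tested. Edem1, which extracts misfolded glycoproteins, rose from 91.6, 90.03 and 79.1 CPM to a range of 153 to 253 with a median of 206 (log2 fold change 1.23 ± 0.17, adjusted p = 0.00489). Sdf2l1, a chaperone partner, rose from 19.7, 15.2 and 15.9 CPM to a range of 43.9 to 122 with a median of 69.5 (log2 fold change 2.15 ± 0.37, adjusted p = 0.0111). Creld2, a secreted protein disulfide isomerase, rose from 49.5, 32.1 and 42.1 CPM to a range of 71.2 to 251 with a median of 139 (log2 fold change 1.88 ± 0.42, adjusted p = 0.0301). The chaperone Hsp90b1 rose from 664, 599 and 659 CPM to a range of 991 to 2134 with a median of 1315 (log2 fold change 1.21 ± 0.29, adjusted p = 0.0354) and the disulfide isomerase Pdia6 from 253, 239 and 263 CPM to a range of 346 to 713 with a median of 405 (log2 fold change 0.91 ± 0.23, adjusted p = 0.0436). The asthma libraries 1 and 2 had the highest summed level of this list, and asthma 3 and the BSYQF libraries lay between them and control. The list's count became 1 without control 1, 2 or 3, 2 without BSYQF 1, 3 without asthma 1 and 12 without BSYQF 3. The call of Edem1 held whichever library was left out. Sdf2l1 was not called without control 1, 2 or 3 (adjusted p up to 0.0741). Creld2 and Hsp90b1 were not called without control 1, 2 or 3, asthma 1 or BSYQF 1 (adjusted p up to 0.168). Pdia6 was not called without control 1, 2 or 3, asthma 1 or 2 or BSYQF 1 or 2 (adjusted p up to 0.190).

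Many such genes are known to carry the ER stress element in their promoters, a composite site of the unfolded protein response with the letters CCAAT, 9 of any base (N), and CCACG. It was searched on both strands from 250 bases before to 50 bases after each gene's start, in RefSeq promoters on GRCm38.p6. The exact letters were found in 7 of 18 folding genes with a promoter, in 3 of the 6 of these that were called higher (Creld2, Hsp90b1 and Pdia6), and in 1 of 12 plasma cell genes, Derl3. Over all tested genes with a promoter, 17 of 11456 (0.148%) held it. The 4 windows are shown since they belong to all 4 of the 474 genes called higher with a promoter that held the letters (0.844%). Each is written 5′ to 3′ along the strand of its gene, with the element in capitals, which reads as its reverse complement CGTGG, 9 bases and ATTGG in Creld2 and Derl3. Hsp90b1 held a further match, as the reverse complement, at position -107 from the gene's start, outside the window shown. A match is a description of letters and no measure of binding. Hsp90b1 and Pdia6 were named after their values were seen.
Hsp90b1 (chr10:86705618-86705676, - strand): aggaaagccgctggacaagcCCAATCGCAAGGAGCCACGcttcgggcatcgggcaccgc
Pdia6 (chr12:17266471-17266529, + strand): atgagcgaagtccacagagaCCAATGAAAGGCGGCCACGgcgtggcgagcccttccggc
Creld2 (chr15:88819500-88819558, + strand): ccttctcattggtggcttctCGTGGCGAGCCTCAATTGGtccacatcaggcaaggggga
Derl3 (chr10:75893222-75893280, + strand): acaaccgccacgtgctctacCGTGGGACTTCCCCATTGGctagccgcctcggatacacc

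Macrophage genes rose, among them genes of the complement-producing interstitial type and of the lipid-laden type. Of 12 tested interstitial macrophage genes, 6 were called higher and 1, Tmem119, lower (median 1.26). Shares over all genes tested were 4.24% called higher and 1.67% called lower. C1qa, C1qb and C1qc, which form the recognition molecule of the classical complement pathway, rose together. C1qb, on chromosome 4 (chr4:136880129-136886187), stood at 39.1, 20.5 and 23.5 CPM in control, 104, 100.3 and 121 in asthma and 103, 101.7 and 73.3 in BSYQF (log2 fold change 1.86 ± 0.22, adjusted p = 0.00469). C1qa and C1qc had log2 fold changes of 1.91 ± 0.24 and 2.0 ± 0.25, both with an adjusted p of 0.00469. BSYQF 3 was the lowest model library in all 3, and still above the highest control library. Of 11 tested genes of lipid-associated macrophages, 7 were called higher and 0 lower (median 2.20). Gpnmb, Spp1, Cd9 and Lpl of this list were not called, and Trem2 was not tested. Ctsk, a collagen-cutting cathepsin, rose from 42.3, 22.7 and 26.7 CPM to 527, 414 and 161 in asthma and 599.9, 191 and 71.9 in BSYQF (log2 fold change 3.42 ± 0.68, adjusted p = 0.0231). Itgax, the integrin chain CD11c, rose from 30.4, 32.0 and 31.2 CPM to a range of 53.03 to 342 with a median of 161 (log2 fold change 2.58 ± 0.55, adjusted p = 0.0269), and Plin2, a lipid droplet coat protein, from 124, 111 and 116 CPM to a range of 137 to 335 with a median of 246 (log2 fold change 1.06 ± 0.22, adjusted p = 0.0240). Of 15 alveolar macrophage genes 3 were called higher, Itgax, Atp6v0d2 and Mrc1, and 0 lower, with a median of 0.40. The counts became 0 without control 1, 2 or 3 and 3 without asthma 1 or 2 for lipid-associated and 0 without control 1, 2 or 3 for alveolar macrophages. The calls of C1qa, C1qb and C1qc held whichever library was left out. Tmem119 was not called without control 2 or 3 (adjusted p up to 0.128). Itgax, Plin2 and Mrc1 were not called without control 1, 2 or 3 (adjusted p up to 0.128). Ctsk was not called without control 1, 2 or 3 or asthma 2 (adjusted p up to 0.127). Atp6v0d2 was not called without control 1, 2 or 3 or asthma 1 or 2 (adjusted p up to 0.179).

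Genes of lysosomal enzymes and of complement rose as well. Of 20 tested lysosome genes, 12 were called higher and 0 lower (median 0.80), where 4.24% of all genes tested were called higher. Ctsd, an acid protease, rose from 359.8, 319 and 292 CPM to a range of 577 to 1043 with a median of 748 (log2 fold change 1.27 ± 0.20, adjusted p = 0.00859). Ctss, the protease that trims the MHC class II invariant chain, rose from 145, 161 and 154 CPM to a range of 285 to 876 with a median of 442 (log2 fold change 1.66 ± 0.32, adjusted p = 0.0168). The ranges of model and control were separate in both. Of 22 complement genes 8 were called higher and 0 lower (median 0.42). Besides C1q, C3ar1, the receptor of the C3a fragment, rose from 5.78, 3.80 and 3.62 CPM to 58.3, 39.7 and 27.7 in asthma and 34.2, 23.1 and 16.9 in BSYQF (log2 fold change 2.92 ± 0.39, adjusted p = 0.00470). Counts became 0 without control 2 or 3, 1 without control 1 and 7 without asthma 1 for lysosome genes and 4 without control 2 or 3 and 5 without asthma 1 for complement. The call of C3ar1 held whichever library was left out. Ctsd was not called without control 2 or 3 (adjusted p up to 0.0636). Ctss was not called without control 1, 2 or 3 (adjusted p up to 0.0887).

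Genes that present antigen to helper T cells rose by less than 2-fold. Of 10 tested MHC class II genes 5 were called higher, H2-Aa, H2-Ab1, H2-Eb1, H2-DMa and H2-DMb1, and 0 lower, with a median of 0.77. Shares over all genes tested were 4.24% called higher and 1.67% called lower. H2-Eb1 stood at 333, 387 and 374 CPM in control, 596, 549 and 511 in asthma and 883, 563 and 609 in BSYQF (log2 fold change 0.76 ± 0.18, adjusted p = 0.0368). H2-Ab1 rose from 416, 543 and 550.1 CPM to a range of 688 to 1107 with a median of 823 (log2 fold change 0.75 ± 0.18, adjusted p = 0.0381). Control lay below every model library for both. Of 12 dendritic cell genes 5 were called higher, Ccl22, Fscn1, Xcr1, Batf3 and Flt3, and 1, Clec9a, was called lower. Fscn1, an actin bundler of mature dendritic cells, rose from 25.99, 24.2 and 33.6 CPM to a range of 50.7 to 120.4 with a median of 71.3 (log2 fold change 1.50 ± 0.26, adjusted p = 0.0124). Xcr1, the chemokine receptor of cross-presenting dendritic cells, rose from 4.54, 3.69 and 4.15 CPM to a range of 5.69 to 10.2 with a median of 7.98 (log2 fold change 0.96 ± 0.22, adjusted p = 0.0345). Clec9a, a receptor of the same dendritic cells, was called in the opposite direction. H2-Aa, Flt3 and Clec9a were named after their values were seen, and reads of MHC genes with close copies may be shared. Counts became 0 without control 1, 2 or 3, asthma 1 or BSYQF 2 and 1 without asthma 2 or BSYQF 1 for MHC class II and 0 without control 2 or 3, 1 without control 1, 2 without asthma 1 or BSYQF 2 and 3 without asthma 2 or BSYQF 1 for dendritic cell genes. Fscn1 was not called without control 1, 2 or 3 (adjusted p up to 0.0798). H2-Eb1 and Xcr1 were not called without control 1, 2 or 3, asthma 1 or BSYQF 2 (adjusted p up to 0.170). H2-Ab1, Batf3, Flt3 and Clec9a were not called without control 1, 2 or 3, asthma 1 or 2 or BSYQF 1 or 2 (adjusted p up to 0.206).

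Chemokine genes rose. Of 22 tested CC and CXC chemokine genes 13 were called higher and 0 lower (median 2.49). Ccl8 stood at 5.78, 0.527 and 0.958 CPM in control, 92.9, 114 and 67.3 in asthma and 151, 52.7 and 63.4 in BSYQF (log2 fold change 5.20 ± 0.72, adjusted p = 0.00672). Cxcl9, which draws activated T cells and is induced by interferon gamma, rose from 1.89, 0.644 and 1.33 CPM to 10.2, 13.8 and 10.1 in asthma and 21.3, 10.4 and 13.8 in BSYQF (log2 fold change 3.35 ± 0.39, adjusted p = 0.00469). Ccl6, a chemokine of macrophages, rose from 151.8, 158 and 127 CPM to a range of 292 to 739 with a median of 539 (log2 fold change 1.86 ± 0.26, adjusted p = 0.00595). Cxcl1 and Cxcl3, which attract neutrophils, had log2 fold changes of 2.61 ± 0.43 and 5.15 ± 0.83 (adjusted p = 0.00869 for both). All 5 were separated between model and control. Of 19 tested interferon response genes 2 were called higher (Cxcl9 and Cxcl10) and 1, Ifit2, lower, with a median of 0.078. Ifit2, an antiviral protein, fell from 39.6, 56.9 and 44.8 CPM to a range of 16.9 to 32.5 with a median of 27.9 (log2 fold change -0.81 ± 0.20, adjusted p = 0.0385). The chemokine count became 4 without control 2 or 3, 5 without control 1 and 8 without asthma 1 or 2, and the counts of the interferon list became 1 without control 1, 2 or 3 (higher) and 0 without control 1, 2 or 3, asthma 1 or BSYQF 1 and 2 without BSYQF 3 (lower). The calls of Ccl8, Cxcl9 and Ccl6 held whichever library was left out. Cxcl1 was not called without control 3 (adjusted p up to 0.0514). Cxcl3 and Cxcl10 were not called without control 1, 2 or 3 (adjusted p up to 0.0979). Ifit2 was not called without control 1, 2 or 3, asthma 1 or BSYQF 1 (adjusted p up to 0.202).

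Genes of the type 2 response in macrophages and stroma rose, with large spread between model libraries. Of 17 tested, 6 were called higher and 0 lower (median 1.54), where 4.24% of all genes tested were called higher. Retnla, a secreted marker of alternatively activated macrophages (chr16:48842551-48844461), stood at 81.4, 15.97 and 22.2 CPM in control, 3879, 6074 and 2173 in asthma and 4696, 1068 and 406 in BSYQF (log2 fold change 6.26 ± 1.08, adjusted p = 0.0140). Ccl11, which attracts eosinophils, rose from 3.84, 2.11 and 2.82 CPM to a range of 11.7 to 68.9 with a median of 17.9 (log2 fold change 3.15 ± 0.64, adjusted p = 0.0231), and Ccl22, a ligand of the receptor CCR4, from 3.57, 3.22 and 2.98 CPM to a range of 10.3 to 34.6 with a median of 16.9 (log2 fold change 2.55 ± 0.39, adjusted p = 0.00734). Arg1, which splits arginine to ornithine, rose from 3.19, 3.16 and 0.851 CPM to 227, 188 and 37.5 in asthma and 97.3, 20.5 and 7.81 in BSYQF (log2 fold change 5.33 ± 1.26, adjusted p = 0.0428). The highest control library was below the lowest model library in each. Chil3, a chitinase-like protein of macrophages, stood at 89.3, 72.8 and 54.5 CPM in control and a range of 227 to 4244 with a median of 793 in the model and was not called (adjusted p = 0.0548). The type 2 cytokines were close to the limit of detection: Il4 had at most 11 counts, Il5 at most 10 and Il13 at most 16 in any library, and none of these 3 was tested. The list's count became 0 without control 2 or 3, 3 without control 1 and 12 without BSYQF 3. Retnla and Ccl22 were not called without control 2 or 3 (adjusted p up to 0.0811). Ccl11 was not called without control 1, 2 or 3 (adjusted p up to 0.129). Arg1 was not called without control 1, 2 or 3 or asthma 1 or 2 (adjusted p up to 0.182).

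Interleukin 4 and interleukin 13 act through STAT6, whose type of site is the palindrome TTC, 4 of any base and GAA. The same 300-base windows held it in 2 of 14 of these genes, in Retnla and in Ccl17, which was not called in the pooled comparison and was named after its value was seen, beside 746 of 11456 tested genes with a promoter (6.51%). The window of Retnla is shown, being the only 1 of the 4 called members with a promoter that held it, at position -145 from the gene's start and with the palindrome in capitals.
Retnla (chr16:48842444-48842493, + strand): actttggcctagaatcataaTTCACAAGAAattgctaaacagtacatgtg

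**Figure D4:**
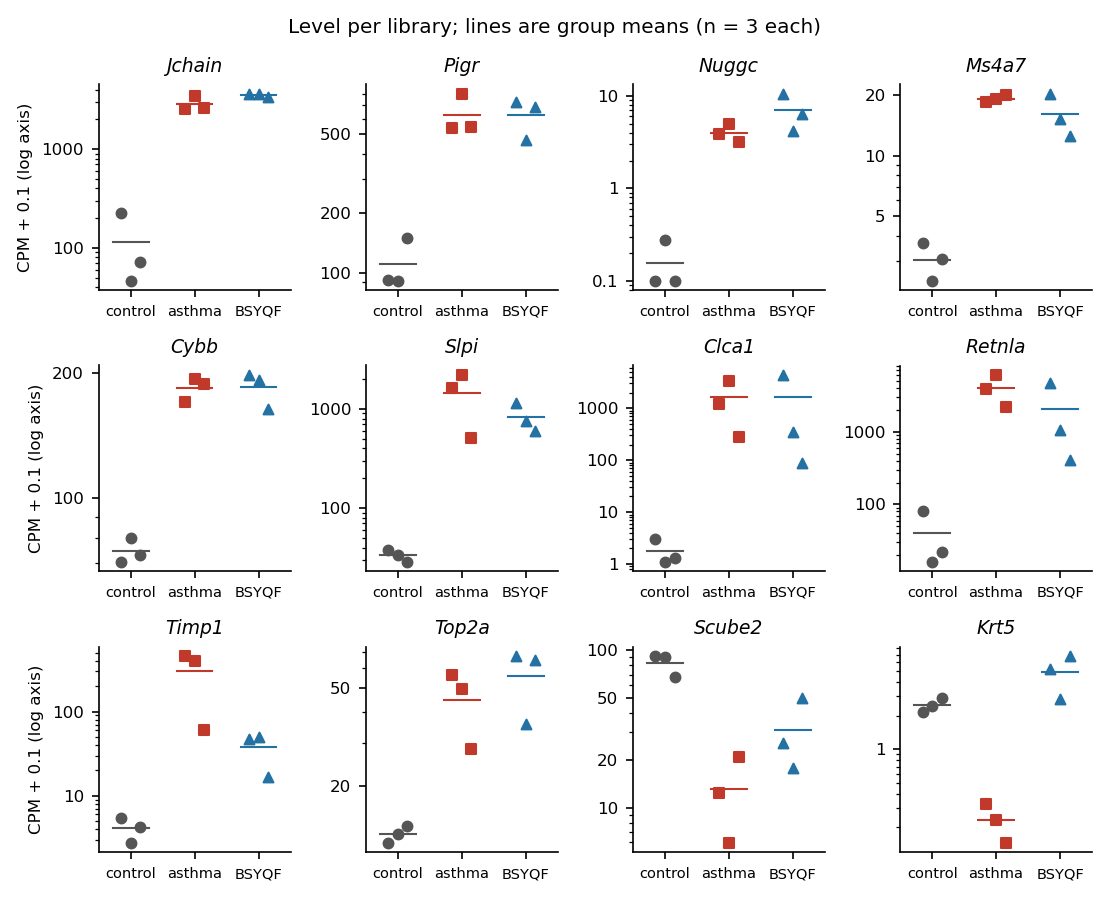
Each panel plots 1 gene's CPM plus 0.1 on a log axis for every library, with points for the 3 control, 3 asthma and 3 BSYQF libraries and lines at the group means. Jchain, Pigr, Cybb and Top2a overlap between both model groups and lie above control, Clca1 and Retnla spread widely among model libraries, the mean of Timp1 is higher in asthma than in BSYQF, and Krt5 is above 2 CPM in control and BSYQF and below 1 CPM in asthma.

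Genes of mucus and of goblet cells, which make it, rose. Of 14 tested mucus and goblet cell genes, 10 were called higher and 0 lower (median 3.50), beside 4.24% of all genes tested called higher. In 12 all model libraries were above control, beside 9.25% of all genes tested. Tff2, a trefoil peptide of mucus, rose from 4.97, 1.87 and 6.01 CPM to 42.8, 65.1 and 31.5 in asthma and 101, 30.3 and 26.8 in BSYQF (log2 fold change 3.52 ± 0.55, adjusted p = 0.00859). Slc26a4, the anion exchanger pendrin, rose from 6.05, 1.64 and 2.93 CPM to a range of 31.1 to 156 with a median of 83.8 (log2 fold change 4.60 ± 0.75, adjusted p = 0.0114). Muc5b and Muc5ac, the gel-forming mucins of the airways, had log2 fold changes of 2.76 ± 0.51 and 4.26 ± 0.80 (adjusted p = 0.0161 and 0.0180). Clca1 had the largest rise of the genes named here, 9.87 ± 1.79 (adjusted p = 0.0183). Model libraries were above control for all 5, and within the model the highest and lowest library of Clca1 were BSYQF 1 and BSYQF 3, both of the formula group. The summed level of the list was 139.6 to 191 CPM in control, 718 to 4964 in asthma and 578 to 6180.0 in BSYQF. The count became 0 without control 2, 1 without control 3 and 2 without control 1. Tff2 was not called without control 2 (adjusted p up to 0.0503). Slc26a4 was not called without control 2 or 3 (adjusted p up to 0.0766). Muc5b and Muc5ac were not called without control 1, 2 or 3 (adjusted p up to 0.109).

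Other airway secretory genes changed less evenly. Of 13 tested club and airway secretory genes 3 were called higher, Pigr, Chad and Reg3g, and 0 lower (median 0.72). The share called higher over all genes tested was 4.24%. Reg3g, an antibacterial lectin, stood at 22.3, 40.2 and 54.9 CPM in control, 140.3, 179 and 46.7 in asthma and 225, 184 and 437 in BSYQF (log2 fold change 2.37 ± 0.60, adjusted p = 0.0471), and asthma 3 overlapped control. Bpifa1, an airway surface defence protein, stood at 434, 609 and 621 CPM in control, 17.5, 30.8 and 83.9 in asthma and 269.9, 524 and 487 in BSYQF. It was not called in the pooled comparison (log2 fold change -1.24 ± 0.91, adjusted p = 0.390). Every asthma library lay below every BSYQF and control library, and its log2 fold change against control was -3.65 ± 0.53 in asthma and -0.38 ± 0.48 in BSYQF. Of 16 airway ion transport genes, Slc26a4 and Slc5a1 were called higher. Slc5a1, a sodium-glucose cotransporter, rose from 8.65, 5.67 and 5.91 CPM to a range of 19.8 to 37.4 with a median of 22.4 (log2 fold change 1.86 ± 0.25, adjusted p = 0.00470). The acute-phase gene Saa3 rose from 17.7, 3.92 and 4.36 CPM to 2351, 1637 and 531 in asthma and 198, 654 and 122 in BSYQF (log2 fold change 6.72 ± 1.29, adjusted p = 0.0218), with no overlap. The club cell count became 1 without control 1, 2 or 3, asthma 2 or BSYQF 1 or 2 and 5 without asthma 3 or BSYQF 3 and the ion transport count 1 without control 2 or 3. The call of Slc5a1 held whichever library was left out. Saa3 was not called without control 1, 2 or 3 (adjusted p up to 0.123). Chad was not called without control 1, 2 or 3, asthma 2 or BSYQF 1 or 2 (adjusted p up to 0.196). Reg3g was not called without control 1, 2 or 3, asthma 1 or 2 or BSYQF 1 or 2 (adjusted p up to 0.192).

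Mast cell proteases and enzymes of lipid mediators were among the rises, where 4.24% of all genes tested were called higher. Of 14 tested mast cell and basophil genes 2 were called higher, the mucosal mast cell proteases Mcpt1 and Mcpt2, and 0 lower. Mcpt2 stood at 0.270, 0.234 and 0.266 CPM in control, 9.45, 32.7 and 3.41 in asthma and 20.7, 2.79 and 2.24 in BSYQF (log2 fold change 5.49 ± 1.18, adjusted p = 0.0278), and Mcpt1 was at 0.108, 0.117 and 0 CPM in control and a range of 2.13 to 69.7 with a median of 13.2 in the model (adjusted p = 0.0341). The libraries were separated for both. Tpsab1, a mast cell tryptase, was separated too but not called (log2 fold change 3.37 ± 0.91, adjusted p = 0.0524). Of 17 eicosanoid genes 4 were called higher, Tbxas1, Alox5ap, Hpgds and Ptgdr, and 0 lower. Tbxas1, thromboxane synthase, rose from 6.92, 7.61 and 6.86 CPM to a range of 12.5 to 23.4 with a median of 19.8 (log2 fold change 1.44 ± 0.21, adjusted p = 0.00662), and Alox5ap, which feeds leukotriene synthesis, from 41.8, 43.9 and 30.1 CPM to a range of 60.98 to 95.4 with a median of 70.8 (log2 fold change 0.93 ± 0.19, adjusted p = 0.0188). Hpgds, a prostaglandin D2 synthase, rose from 1.68, 2.46 and 2.55 CPM to a range of 3.23 to 8.24 with a median of 5.86 (log2 fold change 1.43 ± 0.32, adjusted p = 0.0304). The mast cell count became 0 without control 1, 2 or 3, 1 without asthma 1 and 4 without BSYQF 3 and the eicosanoid count 0 without control 3, 1 without control 1 or 2, 2 without asthma 1 and 8 without BSYQF 3. Tbxas1 was not called without control 3 (adjusted p up to 0.0501). Mcpt2 and Alox5ap were not called without control 1, 2 or 3 (adjusted p up to 0.136). Mcpt1 was not called without control 1, 2 or 3 or asthma 1 (adjusted p up to 0.159). Ptgdr was not called without control 1, 2 or 3, asthma 1 or BSYQF 1 (adjusted p up to 0.153). Hpgds was not called without control 1, 2 or 3, asthma 1 or BSYQF 1 or 2 (adjusted p up to 0.121).

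Genes of dividing cells rose, where 4.24% of all genes tested were called higher. Of 17 tested mitotic cell cycle genes 14 were called higher and 0 lower (median 1.88), and of 19 DNA replication genes 12 higher and 0 lower (median 1.21). Top2a, which untangles chromosomes, stood at 11.7, 12.7 and 13.7 CPM in control, 56.1, 49.2 and 28.2 in asthma and 67.2, 35.6 and 64.4 in BSYQF (log2 fold change 1.98 ± 0.27, adjusted p = 0.00539). Birc5, a part of the chromosomal passenger complex, rose from 1.35, 2.11 and 2.501 CPM to a range of 7.26 to 23.8 with a median of 13.1 (log2 fold change 2.80 ± 0.40, adjusted p = 0.00595), and Ccna2, cyclin A2, from 1.89, 2.46 and 3.67 CPM to a range of 8.25 to 16.9 with a median of 15.3 (log2 fold change 2.31 ± 0.33, adjusted p = 0.00622). Mki67, the proliferation marker Ki-67, rose from 18.8, 11.1 and 15.8 CPM to a range of 38.6 to 132 with a median of 96.97 (log2 fold change 2.56 ± 0.39, adjusted p = 0.00734). Pclaf, a partner of the replication clamp, rose from 3.24, 1.93 and 2.55 CPM to a range of 12.5 to 35.7 with a median of 24.03 (log2 fold change 3.18 ± 0.37, adjusted p = 0.00469), and Mcm6, of the replicative helicase, from 13.2, 14.9 and 14.8 CPM to a range of 29.4 to 71.2 with a median of 43.8 (log2 fold change 1.65 ± 0.26, adjusted p = 0.00810). Asthma 3 was the lowest model library of Top2a, Birc5, Mki67, Pclaf and Mcm6, and still above every control library. The mitotic count became 3 without control 2 or 3 and 5 without control 1, and that of DNA replication 0 without control 1 or 3, 1 without control 2 and 6 without asthma 1 or BSYQF 1. The calls of Top2a, Birc5, Ccna2 and Pclaf held whichever library was left out. Mki67 was not called without control 2 or 3 (adjusted p up to 0.0541). Mcm6 was not called without control 1, 2 or 3 (adjusted p up to 0.0540).

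Late cell cycle genes are known for the cell cycle homology region in their promoters, a site of the DREAM and MuvB complexes with the letters TTTGAA. On either strand of the 300-base windows, these letters were found in 10 of 14 mitotic genes with a promoter, in 8 of the 11 of these called higher, and in 2 of 16 DNA replication genes. Over all tested genes with a promoter the share was 14.7%, and over the 474 called higher it was 23.6%. Windows of 2 genes described above and of Cdk1, the mitotic kinase, and Ube2c, a ubiquitin-conjugating enzyme of mitotic exit, are shown on GRCm38.p6 with the letters in capitals, which read as the reverse complement TTCAAA in Ube2c. Each window marks 1 match in capitals. Mki67, Top2a and Cdk1 held another, at positions -98, -23 and -15 from the gene's start. That of Mki67 lies in the window shown, in small letters, and the others lie outside theirs. Cdk1 rose from 4.16, 2.40 and 3.56 CPM to a range of 6.86 to 23.2 with a median of 15.3 (log2 fold change 2.14 ± 0.41, adjusted p = 0.0168) and Ube2c from 4.11, 2.98 and 4.47 CPM to a range of 7.49 to 34.5 with a median of 16.9 (log2 fold change 2.23 ± 0.50, adjusted p = 0.0290). These 2 were named after their values were seen. Cdk1 was not called without control 1, 2 or 3 (adjusted p up to 0.102). Ube2c was not called without control 1, 2 or 3, asthma 1 or BSYQF 1 (adjusted p up to 0.144).
Mki67 (chr7:135716470-135716515, - strand): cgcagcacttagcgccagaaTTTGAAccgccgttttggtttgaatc
Top2a (chr11:99024343-99024388, - strand): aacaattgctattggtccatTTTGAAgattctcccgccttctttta
Cdk1 (chr10:69352958-69353003, - strand): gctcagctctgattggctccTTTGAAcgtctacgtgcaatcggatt
Ube2c (chr2:164769880-164769925, + strand): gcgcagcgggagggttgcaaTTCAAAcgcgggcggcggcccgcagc

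Some genes of immune checkpoints rose. Of 10 tested genes of regulatory T cells and checkpoints 5 were called higher, Pdcd1, Lag3, Tigit, Cd274 and Tnfrsf4, and 0 lower (median 0.95). The share called higher over all genes tested was 4.24%. Foxp3, Il2ra, Ikzf2, Tnfrsf18 and Havcr2 were tested and not called, and Ctla4 and Icos were not tested. Pdcd1, the inhibitory receptor PD-1, rose from 1.46, 1.40 and 1.06 CPM to a range of 4.08 to 6.22 with a median of 5.65 (log2 fold change 2.03 ± 0.27, adjusted p = 0.00504), and Lag3, a further inhibitory receptor, from 2.27, 1.52 and 2.18 CPM to a range of 6.23 to 16.5 with a median of 9.38 (log2 fold change 2.40 ± 0.39, adjusted p = 0.00869). Cd274, the ligand of PD-1, rose from 20.7, 30.9 and 27.8 CPM to a range of 36.2 to 56.5 with a median of 51.02 (log2 fold change 0.89 ± 0.17, adjusted p = 0.0168). Model and control were separate for all 3. The count became 1 without control 3 and 2 without control 1 or 2, and Tnfrsf4 was named after its value was seen. The call of Pdcd1 held whichever library was left out. Tigit was not called without control 1 or 3 (adjusted p up to 0.0814). Lag3 was not called without control 2 or 3 (adjusted p up to 0.0607). Cd274 was not called without control 1, 2 or 3 (adjusted p up to 0.0770). Tnfrsf4 was not called without control 1, 2 or 3, asthma 1 or BSYQF 1 (adjusted p up to 0.144).

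Matrix-degrading enzymes and their inhibitors, serpins and metabolic lists had few calls, and the sizes of these varied widely. Of 20 matrix protease and inhibitor genes 4 were called higher, Mmp12, Timp1, Adamts4 and Adam8, and 0 lower. Mmp12, the macrophage elastase, stood at 7.08, 5.73 and 6.81 CPM in control, 992, 1216 and 77.5 in asthma and 1615, 96.4 and 65.7 in BSYQF (log2 fold change 6.69 ± 1.48, adjusted p = 0.0354). Adamts4, an aggrecanase, rose from 0.378, 0.117 and 0.479 CPM to a range of 1.15 to 6.11 with a median of 2.16 (log2 fold change 3.15 ± 0.69, adjusted p = 0.0277). Of 16 serpin genes 2 were called higher: Serpina3n, an acute-phase protease inhibitor, rose from 40.7, 17.3 and 19.5 CPM to a range of 85.9 to 351 with a median of 166 (log2 fold change 2.78 ± 0.49, adjusted p = 0.0140), and its relative Serpina3g from 22.6, 32.6 and 41.3 CPM to a range of 61.1 to 124 with a median of 97.8 (log2 fold change 1.56 ± 0.23, adjusted p = 0.00683). The serpins of this cluster are close copies and may share reads. Of 16 arginine and polyamine genes Arg1 and Ass1 (0.77 ± 0.20) were called higher, and of 17 glycolysis genes Pgk1, a glycolytic kinase, and Slc16a3, a lactate exporter (0.88 ± 0.16). Over all genes tested 4.24% were called higher. Counts became 0 without control 1, 2 or 3, 1 without asthma 1 or 2 and 7 without BSYQF 3 for matrix proteases, 0 without control 2, 1 without control 3 and 4 without BSYQF 3 for serpins, 0 without control 1, 2 or 3 or asthma 1 or 2, 1 without BSYQF 1 or 2 and 5 without BSYQF 3 for arginine genes and 0 without control 1 or 3, 1 without control 2, asthma 2 or BSYQF 1, 4 without asthma 3 and 7 without BSYQF 3 for glycolysis. Serpina3g was not called without control 2 (adjusted p up to 0.0502). Slc16a3 was not called without control 1 or 3 (adjusted p up to 0.0847). Serpina3n was not called without control 2 or 3 (adjusted p up to 0.0870). Adamts4 was not called without control 1, 2 or 3 (adjusted p up to 0.132). Mmp12 was not called without control 1, 2 or 3 or asthma 1 or 2 (adjusted p up to 0.172). Pgk1 was not called without control 1, 2 or 3, asthma 2 or BSYQF 1 (adjusted p up to 0.152). Adam8 was not called without control 1, 2 or 3, asthma 1 or 2 or BSYQF 1 (adjusted p up to 0.169). Ass1 was not called without control 1, 2 or 3, asthma 1 or 2 or BSYQF 1 or 2 (adjusted p up to 0.202).

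Of the 246 genes called lower, 50 fell by at least 2-fold. Grik2, a kainate receptor subunit, was the only one past 4-fold, at 3.46, 4.04 and 3.40 CPM in control, 0.679, 0.0672 and 1.08 in asthma and 0.727, 0.813 and 1.61 in BSYQF (log2 fold change -2.10 ± 0.54, adjusted p = 0.0443). Scube2, a secreted protein that releases hedgehog ligands (chr7:109798676-109865679), fell from 91.97, 89.8 and 66.98 CPM to 12.3, 5.85 and 20.7 in asthma and 25.6, 17.8 and 49.4 in BSYQF (log2 fold change -1.92 ± 0.47, adjusted p = 0.0424). Chrdl1, an antagonist of bone morphogenetic proteins, fell from 50.4, 57.5 and 39.7 CPM to 7.19, 8.67 and 16.4 in asthma and 25.9, 16.5 and 26.9 in BSYQF (log2 fold change -1.54 ± 0.36, adjusted p = 0.0345). Ecm2, a matrix protein, fell from 38.1, 44.2 and 40.8 CPM to a range of 5.26 to 21.9 with a median of 15.7 (log2 fold change -1.55 ± 0.35, adjusted p = 0.0301), and Wnt10b, a Wnt ligand, from 24.7, 35.4 and 34.7 CPM to a range of 6.39 to 18.1 with a median of 10.5 (log2 fold change -1.45 ± 0.30, adjusted p = 0.0213). Every control library was above every model library in these 5, as the rule that named the largest falls required. The other 7 of the 12 largest falls named by the rule (Krtap17-1, Camk2b, Hpcal4, Bex2, Twist1, Ccdc42 and Cntn4) had log2 fold changes from -2.0 ± 0.53 to -1.49 ± 0.39. Wnt10b was not called without control 1, 2 or 3 (adjusted p up to 0.111). Chrdl1 and Ecm2 were not called without control 1, 2 or 3 or BSYQF 2 (adjusted p up to 0.156). Hpcal4 was not called without control 1, 2 or 3, asthma 1 or BSYQF 1 (adjusted p up to 0.167). Grik2 and Bex2 were not called without control 1, 2 or 3, asthma 1 or BSYQF 1 or 2 (adjusted p up to 0.184). Krtap17-1, Camk2b and Cntn4 were not called without control 1, 2 or 3, asthma 1 or 2 or BSYQF 1 or 2 (adjusted p up to 0.212). Scube2 was not called without control 1, 2 or 3, asthma 1 or 3 or BSYQF 1 or 2 (adjusted p up to 0.165). Twist1 and Ccdc42 were not called without control 1, 2 or 3, asthma 1, 2 or 3 or BSYQF 1 or 2 (adjusted p up to 0.217).

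Alveolar fibroblast genes had the highest share of falls of the lists examined. Of 15 tested, 6 were called lower and 0 higher (median -0.67), where 1.67% of all genes tested were called lower. Fgf10, the fibroblast signal to the alveolar lining, stood at 23.8, 20.5 and 19.8 CPM in control, 14.7, 14.7 and 14.6 in asthma and 12.2, 11.8 and 12.7 in BSYQF (log2 fold change -0.67 ± 0.14, adjusted p = 0.0247). Fgfr4, a fibroblast growth factor receptor, fell from 40.9, 67.5 and 71.8 CPM to a range of 23.5 to 40.9 with a median of 30.2 (log2 fold change -0.92 ± 0.21, adjusted p = 0.0302), with the lowest control and the highest model library overlapping. Itga8, an integrin chain of mesenchymal cells, fell from 416, 425 and 369 CPM to 98.8, 67.2 and 187 in asthma and 195, 166 and 261 in BSYQF (log2 fold change -1.31 ± 0.32, adjusted p = 0.0405). Scube2, Limch1 and Npnt were the other members called lower. The model libraries of Fgf10 spanned 11.8 to 14.7 CPM, a narrow range, while those of Itga8 were lowest in asthma 2, which had the highest mitochondrial share. The list summed to 7681 to 8199 CPM in control, 2864 to 5745 in asthma and 4578 to 5805 in BSYQF. Its count became 0 without control 2 or 3, 1 without asthma 1 or BSYQF 2, 2 without control 1 and 3 without BSYQF 1. Fgf10 was not called without control 1, 2 or 3 (adjusted p up to 0.114). Fgfr4 was not called without control 2 or 3, asthma 1 or BSYQF 2 (adjusted p up to 0.149). Itga8 and Limch1 were not called without control 1, 2 or 3, asthma 1 or BSYQF 1 or 2 (adjusted p up to 0.167). Npnt was not called without control 1, 2 or 3, asthma 1 or 3 or BSYQF 1 or 2 (adjusted p up to 0.196).

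Median changes of the alveolar type 1 cell and lung endothelium lists were below 0. In each list 2 members were called lower, where 1.67% of all genes tested were called lower. Of 11 alveolar type 1 cell genes 2 were called lower, Akap5 and Vegfa, and 0 higher (median -0.68). In 7 of the 11 all model libraries were below control, beside 7.75% of all genes tested. Vegfa, the growth factor that alveolar type 1 cells give to capillaries, fell from 844, 1010.4 and 926 CPM to a range of 473 to 712 with a median of 551 (log2 fold change -0.72 ± 0.16, adjusted p = 0.0267). Of 20 lung endothelium genes 2 were called lower, Apln and Thbd, and 0 higher (median -0.62). In edgeR's test, 4145 of all 14739 genes had an unadjusted p under 0.05, in either direction. At that threshold 7 type 1 cell and 14 endothelial genes were lower and 0 higher. DESeq2 called 6 and 9 lower and limma voom 2 and 1, and both called 0 higher. Apln, a peptide of capillary endothelium, fell from 43.6, 82.9 and 74.3 CPM to a range of 17.7 to 39.1 with a median of 28.6 (log2 fold change -1.23 ± 0.25, adjusted p = 0.0203), and Thbd, the anticoagulant receptor thrombomodulin, from 950.0, 849 and 831 CPM to a range of 294 to 608 with a median of 531 (log2 fold change -0.84 ± 0.21, adjusted p = 0.0384). Cdh5, the cadherin that joins endothelial cells, had a log2 fold change of -0.68 ± 0.22 and was not called (adjusted p = 0.0790). For Vegfa, Apln and Thbd the model and control libraries did not overlap. Of 12 alveolar type 2 cell genes 1 was called higher (Sftpd, the surfactant protein D gene, named after its value was seen), with a median of -0.0013. The asthma 2 library held the lowest sum of both the type 1 and the endothelial list. Counts became 0 without control 1, 2 or 3 or BSYQF 2, 1 without asthma 1 or BSYQF 1 and 4 without BSYQF 3 for type 1 cells and 0 without control 2 or 3, 1 without control 1, asthma 1 or BSYQF 1 or 2 and 5 without BSYQF 3 for endothelium. Apln was not called without control 2 or 3 (adjusted p up to 0.125). Sftpd was not called without control 1, 2 or 3 (adjusted p up to 0.127). Vegfa was not called without control 1, 2 or 3 or BSYQF 2 (adjusted p up to 0.142). Akap5 and Thbd were not called without control 1, 2 or 3, asthma 1 or BSYQF 1 or 2 (adjusted p up to 0.178).

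More genes of TGF-beta, BMP and Wnt signalling were called lower than higher, where 1.67% of all genes tested were called lower and 4.24% higher. Of 31 tested TGF-beta, activin and BMP genes 4 were called lower, Eng, Ltbp4, Smad6 and Acvrl1, and 1, Inhba, higher (median -0.33). In 12 of the 31 all model libraries were below control, beside 7.75% of all genes tested. DESeq2 called 11 of this list lower and 3 higher, and limma voom 0 in either direction. Inhba, a subunit of the ligand activin A, rose from 3.40, 1.87 and 1.65 CPM to 37.5, 52.9 and 19.9 in asthma and 16.6, 28.6 and 6.35 in BSYQF (log2 fold change 3.54 ± 0.63, adjusted p = 0.0140). Eng, an endothelial co-receptor, fell from 650.3, 798 and 661 CPM to a range of 353 to 514 with a median of 465 (log2 fold change -0.64 ± 0.16, adjusted p = 0.0381). Ltbp4, which binds latent TGF-beta in the matrix, fell from 844, 752 and 682 CPM to a range of 177 to 522 with a median of 365 (log2 fold change -1.17 ± 0.28, adjusted p = 0.0351). No library of one arm lay within the range of the other for these 3. Tgfb1 itself stood at 96.99, 121 and 112 CPM in control and a range of 103 to 196 with a median of 132 in the model and was not called (adjusted p = 0.264). Of 27 Wnt genes Wnt10b and Wnt3a were called lower and Sfrp1, a secreted Wnt antagonist, higher (log2 fold change 1.0 ± 0.21, adjusted p = 0.0237). DESeq2 called 5 of the Wnt list lower and 1 higher, and limma voom 1 in each direction. Counts of the first list became 0 without control 1, 2 or 3 or BSYQF 2, 1 without asthma 1 or BSYQF 1 and 11 without BSYQF 3 (lower) and 0 without control 1, 2 or 3, 2 without BSYQF 1 and 3 without BSYQF 3 (higher), and of the Wnt list 0 without control 2 or 3, 1 without control 1, asthma 1 or 2 or BSYQF 1 or 2 and 5 without BSYQF 3 (lower) and 0 without control 1, 2 or 3 (higher). Inhba and Sfrp1 were not called without control 1, 2 or 3 (adjusted p up to 0.128). Eng was not called without control 1, 2 or 3, asthma 1 or BSYQF 2 (adjusted p up to 0.196). Ltbp4 and Acvrl1 were not called without control 1, 2 or 3, asthma 1 or BSYQF 1 or 2 (adjusted p up to 0.222). Smad6 and Wnt3a were not called without control 1, 2 or 3, asthma 1 or 2 or BSYQF 1 or 2 (adjusted p up to 0.189).

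Of the structural genes linked to airway remodelling, collagens and smooth muscle genes had few calls, all of them lower. Of 20 collagen genes 0 were called higher by edgeR and 3 lower, Col12a1, Col4a5 and Col13a1 (median -0.090), where 1.67% of all genes tested were called lower. At an unadjusted p under 0.05, 1 was higher and 5 lower, beside 4145 of all 14739 genes in either direction. DESeq2 called 0 higher and 5 lower, and limma voom 0 higher and 1 lower. Col1a1, the main fibrillar collagen chain, stood at 207, 179 and 215 CPM in control, 389.9, 237 and 294 in asthma and 167, 333 and 228 in BSYQF (log2 fold change 0.46 ± 0.23, adjusted p = 0.215), and the groups overlapped. Col12a1, a fibril-associated collagen, fell from 59.5, 47.2 and 34.9 CPM to a range of 13.6 to 31.3 with a median of 20.7 (log2 fold change -1.15 ± 0.26, adjusted p = 0.0304), with no overlap. Acta2, smooth muscle actin, stood at 149, 154 and 258 CPM in control and a range of 163 to 308 with a median of 227 in the model (log2 fold change 0.30 ± 0.23, adjusted p = 0.394). Of 12 smooth muscle genes 1 was called lower, Mylk, a myosin light chain kinase named after its value was seen, and 0 higher. The collagen count became 0 without control 1, 2 or 3, asthma 1 or BSYQF 1 or 2. Col12a1, Col13a1 and Mylk were not called without control 1, 2 or 3, asthma 1 or BSYQF 1 or 2 (adjusted p up to 0.206). Col4a5 was not called without control 1, 2 or 3, asthma 1 or 2 or BSYQF 1 or 2 (adjusted p up to 0.209).

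**Figure D5:**
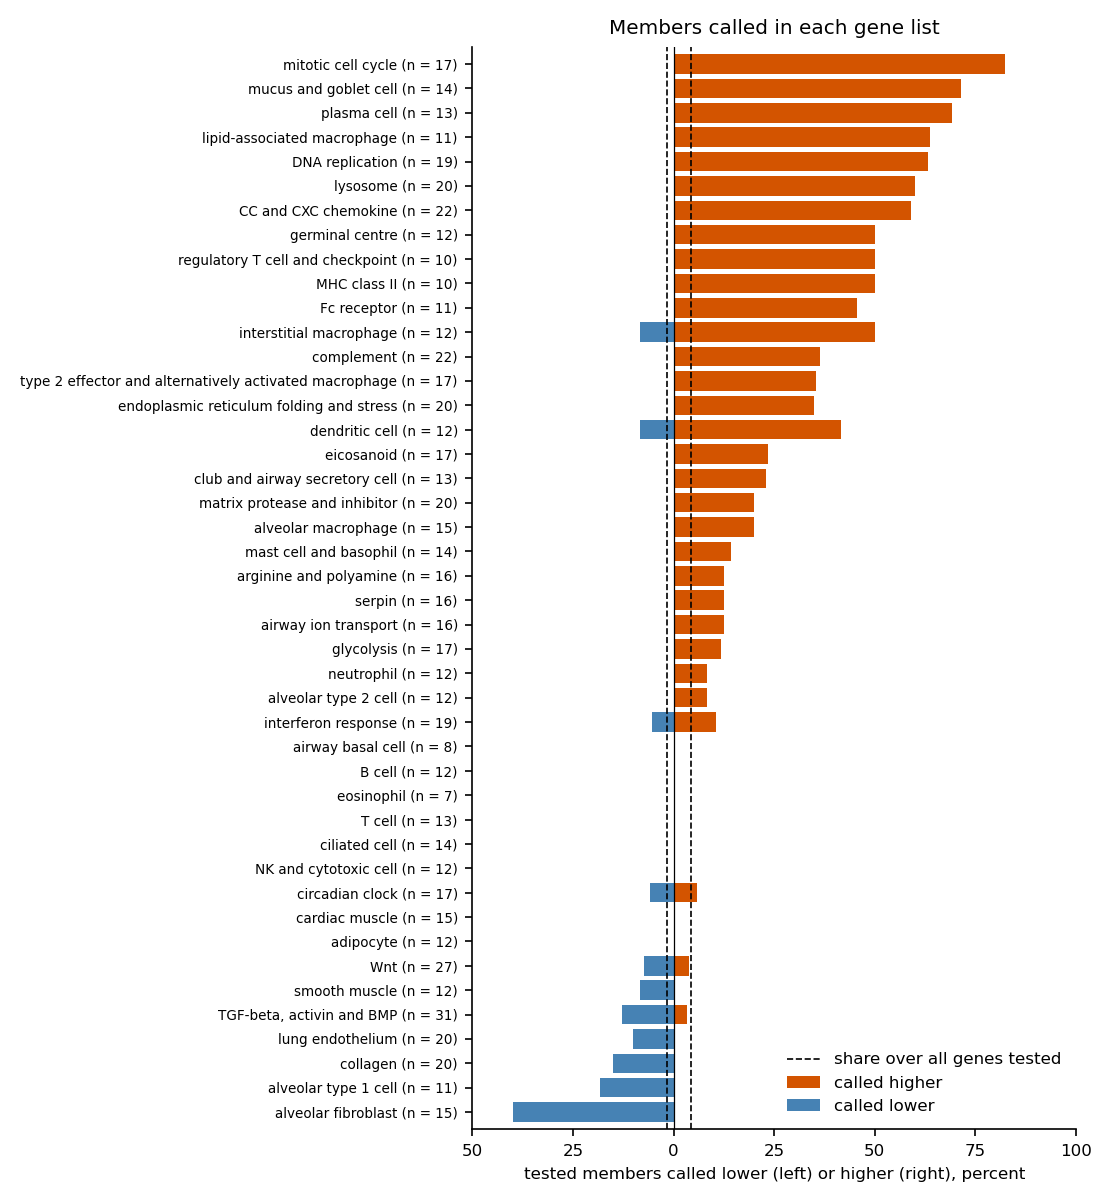
Bars give, for each gene list (n, members tested), the percent of members called higher (right, orange) and lower (left, blue) in the pooled comparison, and dashed lines mark 4.24% and 1.67%, the shares over all genes tested. The mitotic cell cycle list reaches furthest right with 14 of 17, the alveolar fibroblast list furthest left with 6 of 15, and 8 of the lists drawn have 0 members called.

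Mouse pulmonary veins carry heart muscle cells and fat lies around the large airways, so lung samples can hold both. The 15 cardiac muscle genes summed to 606 to 1244 CPM in control, 179.5 to 351 in asthma and 586 to 1647 in BSYQF, and 0 were called by edgeR. The 12 tested adipocyte genes summed to 309 to 887, 162 to 279 and 332 to 787 CPM, and 0 were called. Both lists were lower in the asthma libraries than in every control and BSYQF library. Their part in the falls of connective tissue genes was not tested. Of 17 circadian clock genes 1 was called in each direction, where 4.24% of all genes tested were called higher and 1.67% lower. Nfil3, a transcriptional repressor, rose (log2 fold change 1.19 ± 0.29, adjusted p = 0.0401). Hlf, a clock output factor, fell from 75.5, 69.5 and 56.4 CPM to a range of 13.6 to 39.97 with a median of 26.97 (log2 fold change -1.30 ± 0.32, adjusted p = 0.0409). The clock counts became 0 without control 1, 2 or 3, asthma 1 or 2 or BSYQF 1 and 2 without BSYQF 3 (higher) and 0 without control 1, 2 or 3, asthma 1 or BSYQF 1 (lower). Hlf was not called without control 1, 2 or 3, asthma 1 or BSYQF 1 (adjusted p up to 0.159). Nfil3 was not called without control 1, 2 or 3, asthma 1 or 2 or BSYQF 1 (adjusted p up to 0.170).

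The 1 gene that edgeR called between the pooled groups was Krt5, a keratin of airway basal cells (chr15:101707070-101712898). It stood at 2.05, 2.34 and 2.77 CPM in control, 0.226, 0.134 and 0.0448 in asthma and 5.09, 2.73 and 6.77 in BSYQF, so asthma lay below control and BSYQF at or above it. The BSYQF minus asthma difference was 5.15 ± 0.60 on the log2 scale (adjusted p = 0.0431). The pooled log2 fold change of model against control was 0.066 ± 1.09 (adjusted p = 0.975). The asthma libraries held 4, 2 and 1 counts of it, so the size of the fall rests on few counts. The difference was not called without control 1, 2 or 3, asthma 1 or 2 or BSYQF 1 or 3 (adjusted p up to 0.190), nor with limma voom (adjusted p = 0.431). Without asthma 3, 109 genes differed between BSYQF and asthma.

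Of the 56 lists examined, 23 had fewer than 2 members called, where 4.24% of all genes tested were called higher and 1.67% lower. In edgeR's test 0 were called among 10 tested type 2 cytokine and alarmin genes, 10 lymphoid chemokine and lymphotoxin genes, 12 NK and cytotoxic cell genes, 7 eosinophil genes, 16 nuclear respiratory chain genes, 18 matricellular genes, 14 ciliated cell genes, 8 airway basal cell genes, 7 erythroid, 7 mesothelial and 16 immediate early genes. The 10 mitochondrial transcripts (median 1.04) and 24 xenobiotic metabolism genes (median -0.51) also had 0 called. The 17 lists with 0 called include those of B cell, T cell, cardiac muscle and adipocyte genes. Over these lists, 44 of 211 tested members were higher and 13 lower at an unadjusted p under 0.05. Among all 14739 genes tested, 4145 had such a p in either direction, so these counts do not set the lists apart. DESeq2 called 18 higher and 8 lower among the 211 members, and limma voom 1 higher. One member each was called higher among 12 neutrophil genes (Lcn2, from 113, 60.02 and 67.2 CPM to a range of 451 to 1782 with a median of 801), 14 NRF2 target genes (Slc7a11, a cystine importer), 7 skeletal muscle genes (Pvalb, with 1 against 115 counts, a ratio per total count of 55.7 with a 95% exact counting interval of 9.80 to 2219) and 10 metallothionein and glucocorticoid response genes (Mt1). The call of Lcn2 held whichever library was left out. Slc7a11 and Pvalb were not called without control 1, 2 or 3 (adjusted p up to 0.112). Mt1 was not called without control 1, 2 or 3, asthma 1 or 2 or BSYQF 1 or 2 (adjusted p up to 0.194). Lcn2, Slc7a11 and Mt1 were named after their values were seen.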

How the data were processed

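RNA sequencing read counts per gene from 9 mouse lung libraries, 3 per group, were used as the authors deposited them: whole numbers for 21983 genes, not normalized. Named in the submitters' processing notes are FastQC, cutadapt, STAR, HTSeq, DESeq2 and the build mm10. The versions of these tools, the annotation, the strand setting and the RNA selection are not given in the sources used. The totals of 16286385 to 22819199 counts per library set the counting precision. The 36 per-library columns of the authors' 3 comparison tables were not used. Samples were grouped by their labels.

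The model libraries (asthma and BSYQF) formed 1 arm of 6 and control an arm of 3, in edgeR 4.0.16 on R 4.3.3 with filterByExpr on the 2 arms (14739 genes kept), TMM scaling (factors 0.914 to 1.07) and the robust quasi-likelihood test. The common biological coefficient of variation was 0.261. Called means a Benjamini-Hochberg adjusted p under 0.05 over all genes tested, and ± is a standard error, the absolute log2 fold change divided by the square root of F. BSYQF against asthma, and each against control, came from a model of the 3 groups. CPM are counts per 1e6 of the TMM-scaled total, and a prior count of 2 was added for log2 CPM. The scripts were tested on simulated data. Alternatives were other scaling and filters, DESeq2 1.42.0, limma voom (limma 3.58.1), a replicate block, a 3-group mean contrast and leaving out libraries.

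The comparison and 56 gene lists (819 genes, 781 tested) were chosen with earlier results of these data known, so lists are described and not tested. Genes were named by a rule: among called genes whose arms did not overlap, with at least 1 CPM in the higher arm and more than 3 counts in the lower, the 12 largest rises, 12 largest falls and 12 smallest p-values; from each list with at least 2 called, its 4 members of smallest p; the 10 called genes of at least 2-fold with the smallest p between BSYQF and asthma; the 10 of at least 4-fold with the smallest difference between them; and 10 genes always named. Unnamed gene models and receptor segments were left out of it, and some genes it chose are not reported here. Genes with close copies may share reads, and Sftpb (7 to 24 counts) and Kif11 (0 counts) may show limits of the counting. The labels' replicate numbers did not pair the libraries.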

Additional observations from a re-analysis of the deposited data

Results flagged for a closer look

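Of 212 levels examined, those of 156 named genes and 56 list sums, 10 (7 genes and 3 lists) had 1 of the 6 model libraries far from the others of its arm by Dixon's criterion. Chance meets it in about 1 of 20, so this number is near what chance gives. C1qb stood at 73.3 CPM and C1qc at 81.1 CPM in BSYQF 3, with the other model libraries at 100.3 to 121 and 117 to 139. Col13a1 stood at 33.1 CPM (others 53.9 to 71.9), Grik2 at 0.0672 CPM (0.679 to 1.61) and Slc5a1 at 37.4 CPM (19.8 to 23.5) in asthma 2, the library with the highest mitochondrial share. H2-Eb1 stood at 883 CPM in BSYQF 1 (others 511 to 609) and Nrep at 73.9 CPM in asthma 1 (51.3 to 58.3). The sum of the regulatory T cell and checkpoint list was 82.9 CPM in asthma 3 (116 to 130.1), that of the eosinophil list 119 CPM in BSYQF 1 (59.7 to 68.6) and that of the serpin list 2034 CPM in asthma 1 (1218 to 1475).

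Krt5 was the gene whose response differed between the pooled groups by a test of the difference, with BSYQF minus asthma at 5.15 on the log2 scale (adjusted p = 0.0431 in edgeR's test).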

How the results depend on the processing

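Each of the 871 called genes kept its direction under all 18 alternatives that tested it, while the number called moved. The kept direction is no separate support. In 609 genes called higher and 233 called lower the arms did not overlap, and all alternatives use the same counts. Against 871 called (625 higher, 246 lower, 510 of at least 2-fold), DESeq2 called 2257 (1366 higher, 891 lower, 820 of at least 2-fold) and limma voom 401 (282, 119 and 237). The 3-group mean contrast called 414 lower. Leaving out asthma 2 and BSYQF 3 together gave 1888 (1082 higher, 806 lower), with 2305 genes separated above and 2177 below control, and 48.3% of genes called lower with BSYQF above asthma. Since asthma 2 lay farthest from control and BSYQF 3 nearest, leaving out both favours a lower share. With 1 library left out, the counts ranged from 72 to 2686 called, 66 to 1634 higher, 3 to 1052 lower and 66 to 927 of at least 2-fold. Separated genes numbered 1341 to 2388 above control and 1241 to 1958 below, and the share with BSYQF on the control side of asthma ran from 49.2% to 80.2% of genes called higher and 66.7% to 93.7% of those called lower. BSYQF against asthma gave 123 genes by DESeq2, 0 by limma voom (1134 at an unadjusted p under 0.05) and 0 to 109 with 1 library left out. Of the 43 list counts under 18 alternatives, 258 of 774 values moved by more than 1.5 times. Of the 156 genes named, Krt5 was the only one whose direction turned: its pooled log2 fold change of 0.066 became -1.64 with limma voom, -1.55 with the 3-group mean contrast (adjusted p = 0.0492, called there), -0.27 without asthma 2 and BSYQF 3, and ranged from -0.54 to 0.32 with 1 library left out. For these changes the cause was not tested. Of the 147 of them that were called, 61 were not called by limma voom, 40 with the block, 16 with no filter on low counts and 4 without asthma 2 and BSYQF 3, while 29 were called with each library left out.

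The numbers of the replicates did not pair the libraries: the correlations of their deviations ran from -0.259 to 0.339, the lowest between control 3 and BSYQF 3. With the number as a replicate block, 575 genes were called (124 lower), 542 of them among the 871, BSYQF against asthma gave 15 genes and Krt5 stood at -0.019.

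With 3 control libraries, a gene that was not called cannot be taken as unchanged. Genes near 3 counts per library, such as the type 2 cytokines, could not be compared at this depth.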

Other observations

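Further genes named by the rule belonged to enzymes of nucleotide supply, to monocyte and macrophage surface proteins and to the eosinophil-associated ribonuclease family. Rnase2a, of the last family, stood at 0.108, 0 and 0.106 CPM in control, 27.3, 34.96 and 14.97 in asthma and 86.4, 10.6 and 9.52 in BSYQF (adjusted p = 0.00734), with BSYQF 1 highest as it was for the eosinophil list, of which 0 of 7 tested genes were called by edgeR. Members of this ribonuclease family are close copies and may share reads. Rrm2, the small subunit of ribonucleotide reductase, rose from 5.94, 4.68 and 5.48 CPM to a range of 9.55 to 40.5 with a median of 28.6 (log2 fold change 2.36 ± 0.41, adjusted p = 0.0118), and Tk1, thymidine kinase, from 4.48, 4.45 and 4.42 CPM to a range of 10.9 to 28.9 with a median of 15.7 (log2 fold change 2.02 ± 0.36, adjusted p = 0.0131). Asthma 3 held the lowest model value of Rrm2. Eaf2, listed with the plasma cell genes, rose from 2.97, 0.702 and 0.958 CPM to a range of 9.01 to 26.6 with a median of 12.97 (log2 fold change 3.34 ± 0.53, adjusted p = 0.00801). Cd68, a lysosomal membrane protein of macrophages, rose from 19.9, 17.4 and 16.01 CPM to a range of 36.8 to 175 with a median of 64.99 (log2 fold change 2.20 ± 0.49, adjusted p = 0.0318). The arms did not overlap in any of these 5 genes. Rnase2a and Eaf2 were not called without control 2 or 3 (adjusted p up to 0.0586). Rrm2 and Tk1 were not called without control 1, 2 or 3 (adjusted p up to 0.0771). Cd68 was not called without control 1, 2 or 3 or asthma 1 or 2 (adjusted p up to 0.144).

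Among the genes with the smallest p-values between the groups of the model were Cp, the copper-carrying oxidase ceruloplasmin, Clec4n, the fungal receptor dectin-2, and Itgam, the integrin chain CD11b. Cp stood at 203, 177 and 235 CPM in control, 701, 733 and 493 in asthma and 379, 418 and 348 in BSYQF, a BSYQF minus asthma difference of -0.75 ± 0.19 (adjusted p = 0.362). Clec4n stood at 13.5, 8.07 and 9.04, 144, 92.8 and 46.9 and 40.6, 38.8 and 21.4 CPM in the same order, and its difference was -1.49 ± 0.38 (adjusted p = 0.380). For Itgam the difference was -0.86 ± 0.24 (adjusted p = 0.451), with asthma at 55.97, 52.6 and 33.8 and BSYQF at 21.4, 33.99 and 23.2 CPM. In Cp and Clec4n every asthma library was above every BSYQF library, in Itgam asthma 3 and BSYQF 2 overlapped, and none passed the adjustment. Cp was not called without control 1, 2 or 3 (adjusted p up to 0.112). Clec4n was not called without control 1, 2 or 3 or asthma 2 (adjusted p up to 0.165). Itgam was not called without control 1, 2 or 3, asthma 1 or 2 or BSYQF 2 (adjusted p up to 0.143).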
